A study of Mus musculus with 10 samples.

Results

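TEC genes, annotated transcripts that still await an experimental proof, made up 438 of the 14106 genes measured in brain endothelial cells (BECs) of APP/PS1 and control mice. They were taken as every measured gene with the gene type TEC in GENCODE M21, an annotation of the mouse genome build GRCm38, which is also called mm10. The annotation lists 3219 TEC genes, of which 13.6% were among the measured genes, compared with 25.4% of annotated genes of every type. The BECs were isolated from cortex of female mice at the age of 1 year. The mice were either APP/PS1, which carry the APPSwe and PSEN1DE9 transgenes and deposit Aβ in the brain, or WT controls of the same age, both on the C3H/BL6 background, with 5 libraries in each group. The cells were enriched with CD31 microbeads after myelin removal, and their RNA was sequenced. The paper's methods do not say how the sequencing libraries were made from that RNA. The labels number the libraries of each group 1 to 5, and the APP/PS1 and control libraries with the same number were compared as a pair. Neither the labels nor the methods say whether a library held RNA of 1 mouse or of several, so no error below is known to measure the spread between mice. Each SD below measures the spread between libraries that was left after the authors' batch correction. Each SE rests on the spread of the differences within the 5 pairs.

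A TEC gene is an annotation made by hand where expressed sequence tags with signs of a poly(A) tail pile up outside the known transcripts, mostly without a splice junction. The type says that RNA was once sequenced from the place, and that its ends and its independence from neighbouring genes have not been tested. Introns are copied into the pre-mRNA of their gene and removed by splicing, so RNA from inside an intron on the same strand can belong to a transcript of its own or to the pre-mRNA. A gene on the opposite strand of an exon is called antisense. No source used here states whether the reads were counted by strand. Whether reads of a TEC gene and of a gene overlapping it on the other strand were kept apart is therefore not known.

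The measured TEC genes were short and almost all unspliced. Of the 438, 436 had a single exon, and Gm37939 and Gm38316 had 2. Their median length was 2499 bases, with a range from 214 to 30942 bases. All 10 markers of a list of endothelial genes, among them Cldn5 and Pecam1, were measured. Their mean was 10.72 ± 0.03 log2 CPM (SD, n = 5) in the control libraries and 10.78 ± 0.04 log2 CPM (SD, n = 5) in the APP/PS1 ones. CPM is a count scaled to the library's total, and the deposited log2 CPM had been corrected for batch with a prior count of 3 added. In each library these values converted back to whole adjusted counts, which summed to between 22371766 and 126686149, and the lowest totals were those of replicate 1 in each group. Chromosomes 1, 3, 5, 6, 7 and 9 held 76.7% of the measured TEC genes but 37.5% of all measured genes, and they also held 66.2% of the annotated TEC genes. Of the rest, 2 TEC genes lay on the sex chromosomes.

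The place of each TEC gene relative to other genes was taken from the annotation. Inside an intron of another gene on the same strand lay 283 TEC genes, or 64.6% of those measured, and 50.5% of those annotated. Another 94 lay across an exon on the opposite strand, 18 inside an intron on the opposite strand only, 17 across an exon on the same strand, and 26 overlapped no other gene. The share of annotated TEC genes that was measured differed by place, from 35.7% of those opposite an exon and 17.4% of those in a same-strand intron to 2.71% of those outside other genes. Of the 26 TEC genes outside other genes, 12 began within 5000 bases after the end of a protein-coding gene on the same strand.

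The last 60 bases of 7 TEC genes, none of which overlaps an exon of another gene, show how differently these annotations end. They are a selection from the genes named below. They are written from 5′ to 3′ on the strand of the TEC gene, read from the GENCODE M21 transcripts. Capitals mark the match to AATAAA or ATTAAA nearest the end, the letters most often found before the end of polyadenylated mRNA. A sequence without capitals holds neither. The ends of Gm37084, Gm48372 and Gm37352, also described below, are not printed and hold neither. The 7 therefore do not show how often TEC genes hold these letters, which is given in the next paragraph.
Gm37238, chr13:48542644-48542703, minus strand: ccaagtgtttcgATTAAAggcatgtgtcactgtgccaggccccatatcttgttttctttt
Gm45073, chr8:8642766-8642825, minus strand: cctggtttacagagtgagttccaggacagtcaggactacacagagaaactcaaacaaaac
Gm47138, chr12:99366544-99366603, minus strand: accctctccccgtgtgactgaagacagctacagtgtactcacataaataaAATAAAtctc
Gm37121, chr1:62811798-62811857, plus strand: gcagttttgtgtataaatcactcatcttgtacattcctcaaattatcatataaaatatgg
Gm42528, chr5:39606927-39606986, minus strand: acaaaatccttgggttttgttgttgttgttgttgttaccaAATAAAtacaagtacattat
Gm44220, chr6:93244147-93244206, plus strand: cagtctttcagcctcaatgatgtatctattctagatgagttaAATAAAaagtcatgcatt
Gm42892, chr3:116940358-116940417, minus strand: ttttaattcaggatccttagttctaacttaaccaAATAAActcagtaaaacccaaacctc

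Searched on the gene's own strand, AATAAA or ATTAAA stood in the last 50 bases of 131 of the 438 measured TEC genes, or 29.9%. The share was 28.8% in the annotated TEC genes that were not measured, 74.8% in measured protein-coding genes and 38.3% in the 55450 annotated genes of every type with a sequence. Among TEC genes it differed by place. Of those in a same-strand intron 19.8% held the letters, compared with 50% of those opposite an exon, 53.8% of those outside other genes and 61.1% of those in an intron on the opposite strand. The gene type sense_intronic, a class of noncoding RNA annotated inside introns of the same strand, had 25.5%. A match is a description of the letters only. The median GC content of measured TEC genes was 43%, compared with 49.7% in measured protein-coding genes.

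TEC genes were the most weakly measured gene type of those with over 50 measured genes. Their median level was 0.22 log2 CPM, with quartiles of −0.78 and 1.25 and a range from −2.50 for the lowest to 5.48 for Gm37376, whereas the median of all measured genes was 4.30 log2 CPM. Per kilobase of exon, the scale on which genes of different length can be compared, the median was −1.02 log2 CPM per kb for TEC genes, −0.56 for the sense_intronic type, 0.06 for the antisense type and 2.63 for protein-coding genes. Genes with low counts had been left out by the authors before deposition, so the measured TEC genes are those above that filter. In 405 of the 438 every library had at least 1 adjusted count, and in 320 every library had at least 10. After the batch correction, the median SD of the 5 control libraries was 0.24 log2 CPM for TEC genes, compared with 0.09 over all measured genes. Those genes were not matched to the TEC genes in level. Since the batch correction left nearly equal means in the pairs, this SD also reflects how the pair differences vary.

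**Figure D1:**
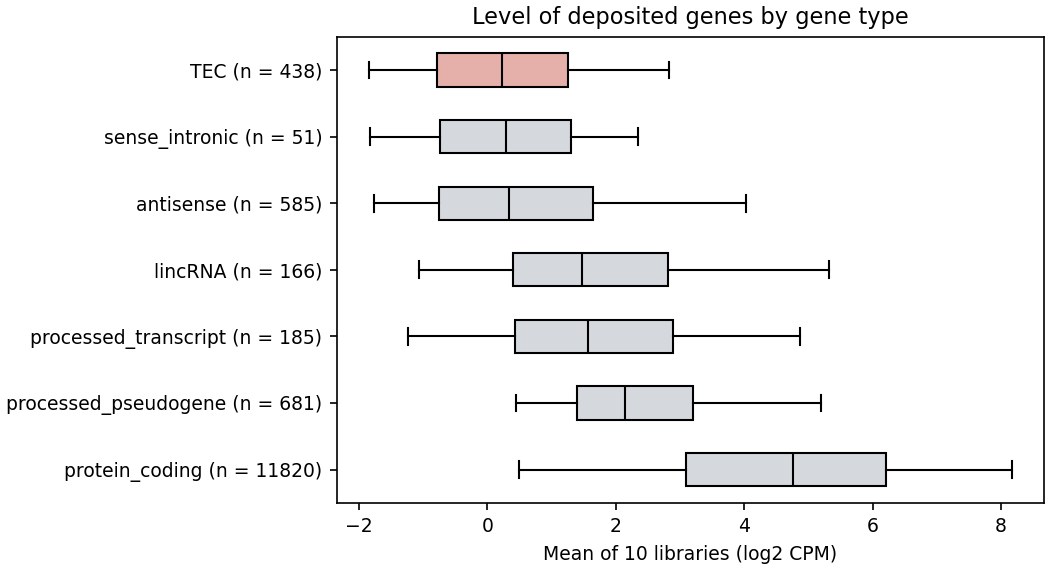
Mean level over the 10 libraries by gene type, in log2 CPM and not per kilobase. Boxes span the quartiles with a line at the median, and whiskers reach from the 5th to the 95th percentile. The TEC genes, with a median of 0.22 log2 CPM, sit lowest, next to the sense_intronic and antisense types, and protein_coding genes sit highest with a median of 4.76.

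The level of the surrounding gene, here called the host, went with whether an intronic TEC gene was measured at all. Of the 481 annotated TEC genes in a same-strand intron of a host that was not itself measured, 3 were measured, or 0.624%. With hosts of up to 2 log2 CPM it was 9 of 240, with hosts between 2 and 4 it was 15 of 179, and with hosts between 4 and 6 it was 49 of 302. Between 6 and 8 log2 CPM, 131 of 318 were measured (41.2%), and in hosts above 8 log2 CPM 76 of 104 were measured (73.1%). These are counts of TEC genes, several of which can share a host. The 412 TEC genes with a host lay in 314 hosts, and 162 of them lay in 64 hosts that held 2 or more. Counting only TEC genes in same-strand introns, Apbb2 held 6, and Fli1, an endothelial transcription factor, Med13l, Picalm and Tcf12 held 4 each.

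**Figure D2:**
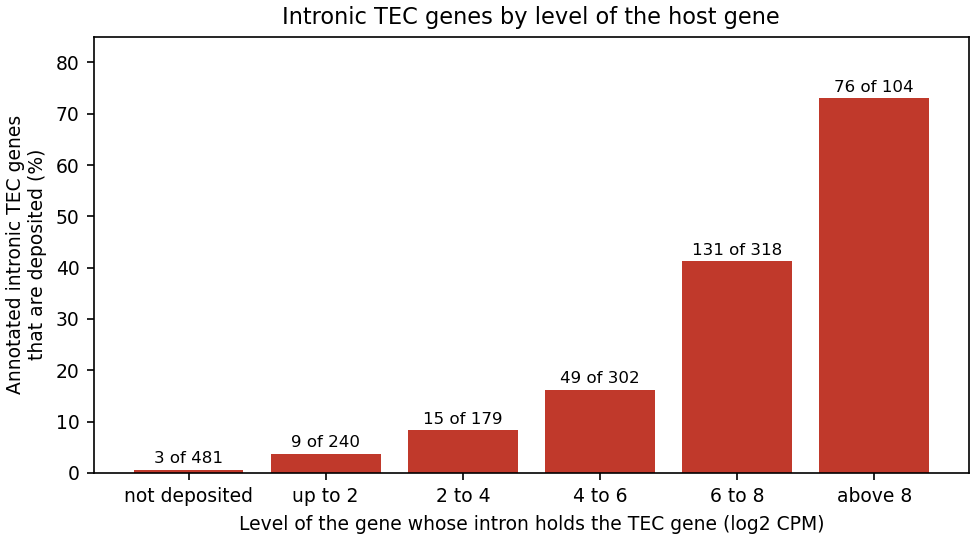
Share of the annotated TEC genes in a same-strand intron that were measured, in percent, by the mean level of the host gene in log2 CPM, with the counts above each bar. The share climbs from 3 of 481 where the host was not measured to 76 of 104 where the host was above 8 log2 CPM.

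Measured TEC genes in same-strand introns stood far below their hosts. Per kilobase, the median difference was −5.35 log2 units over the 280 TEC genes whose host was measured, with quartiles of −6.48 and −4.04, and 272 of the 280 were below the host. For the 90 TEC genes opposite an exon of a measured host the median difference was −4.22 log2 units. Levels per kilobase of TEC gene and host had a rank correlation of 0.26 across the 280 same-strand intronic TEC genes and 0.35 across the 90 antisense ones. These are correlations across genes of the same libraries, and TEC genes in 1 host share that host's value, so they describe these libraries only.

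The 10 TEC genes with the highest log2 CPM were of several kinds. Gm37376, at 5.48 log2 CPM, is 453 bases long (chr19:5801941-5802393, plus strand) and lies over its whole length opposite an exon of Malat1, a nuclear noncoding RNA that was itself at 11.60 log2 CPM. A stretch of 151 bases of Gm37376 also matched Spc24, a gene elsewhere in the genome, with at least 98% identity, so where its reads came from is uncertain. Gm49759, at 5.02 log2 CPM (chr9:59672814-59676700, plus strand), shares 767 bases of exon with Pkm, which encodes pyruvate kinase. Gm42686, at 4.33 log2 CPM (chr5:8731661-8735768, minus strand), lies opposite 553 bases of exon of Abcb1a, the efflux pump P-glycoprotein of the blood–brain barrier. Gm49338, at 4.29 log2 CPM (chr9:45858604-45860682, minus strand), lies opposite 951 bases of exon of Bace1, which encodes the β-secretase that cleaves the amyloid precursor protein. Gm37844 lies opposite Kbtbd11 and had 3.84 log2 CPM. Reads of the pairs on opposite strands cannot be told apart without strand. Gm49759 and Pkm share exon on the same strand, so strand would not separate reads from the shared bases.

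The other 5 of the 10 did not overlap an exon of another gene. Gm44220, at 4.54 log2 CPM (chr6:93241720-93244206, plus strand), lies in an intron of the noncoding gene 9530026P05Rik and was above it per kilobase, at 3.22 compared with 1.43 log2 CPM per kb. In its printed end, AATAAA begins at base 18 counted back from the last base. Gm42892, at 4.02 log2 CPM (chr3:116940358-116944330, minus strand), lies in an intron of Palmd, which encodes palmdelphin, and was 3.70 log2 units below it per kilobase. Gm37352 (chr8:84200869-84203049, plus strand), Gm42528 (chr5:39606927-39610344, minus strand) and Gm42547 (chr6:28211008-28214805, minus strand) overlap no other gene and had 4.46, 4.09 and 3.44 log2 CPM. Of these, Gm42528 begins 3591 bases after the end of Hs3st1, a heparan sulfate sulfotransferase gene on the same strand.

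With the pairs as a term in limma's linear model, 0 TEC genes passed an adjusted p of 0.05 between APP/PS1 and control BECs, where the lowest value reached was 0.238. The share called among all 14106 genes was also 0%. An unadjusted p of 0.05 was passed by 38 TEC genes (8.68%), compared with 8.03% of all genes. Of the 38, 33 were higher in APP/PS1 BECs, where 2.13% of all genes were, and 5 were lower, where 5.91% of all genes were. Weighted limma (voom) on the adjusted counts also gave 0 at the adjusted threshold (0% of all genes), and at the unadjusted one 15 TEC genes (3.42%), where 7.32% of all genes passed. The TEC share was thus above that of all genes in one fit and below it in the other. Without the pairs in the model, 21 TEC genes passed the adjusted threshold, compared with 4.59% of all genes. Of the 21, 17 were higher, where 1.37% of all genes were, and 4 were lower, where 3.23% of all genes were, but that fit does not count the degrees of freedom that the batch correction had used. The paper, whose methods name no pair term, reports genes past an adjusted p of 0.05 and a fold change limit with limma. In these bulk samples, fewer cells of a type and less RNA per cell cannot be told apart.

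The TEC genes leaned towards higher values in APP/PS1 BECs. Of the 438, 312 had a log2 fold change above 0 and 126 below, with a median of 0.11. The median of all measured genes was −0.0038. With voom 268 were above 0 and 170 below, with a median of 0.07, and the median of all genes was −0.04. The split was 259 to 179 without replicate 2 and 344 to 94 without replicate 5. The lean was not particular to the TEC type. The sense_intronic type, at a similar level, had 36 of 51 genes higher with a median of 0.15, and the antisense type 367 of 585 with a median of 0.05. Pooled over all other types, weakly measured genes had medians below 0. Among genes of at most −1 log2 CPM, the median log2 fold change was 0.20 for 89 TEC genes and −0.10 for 317 others, and among genes between 0 and 1 log2 CPM it was 0.08 for 115 TEC genes and −0.09 for 822 others. For the 8 TEC genes above 4 log2 CPM it was 0.06. No p is given for these medians, since genes are not replicates, and the median over TEC genes was 0.06 without replicate 2 and 0.20 without replicate 5.

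**Figure D3:**
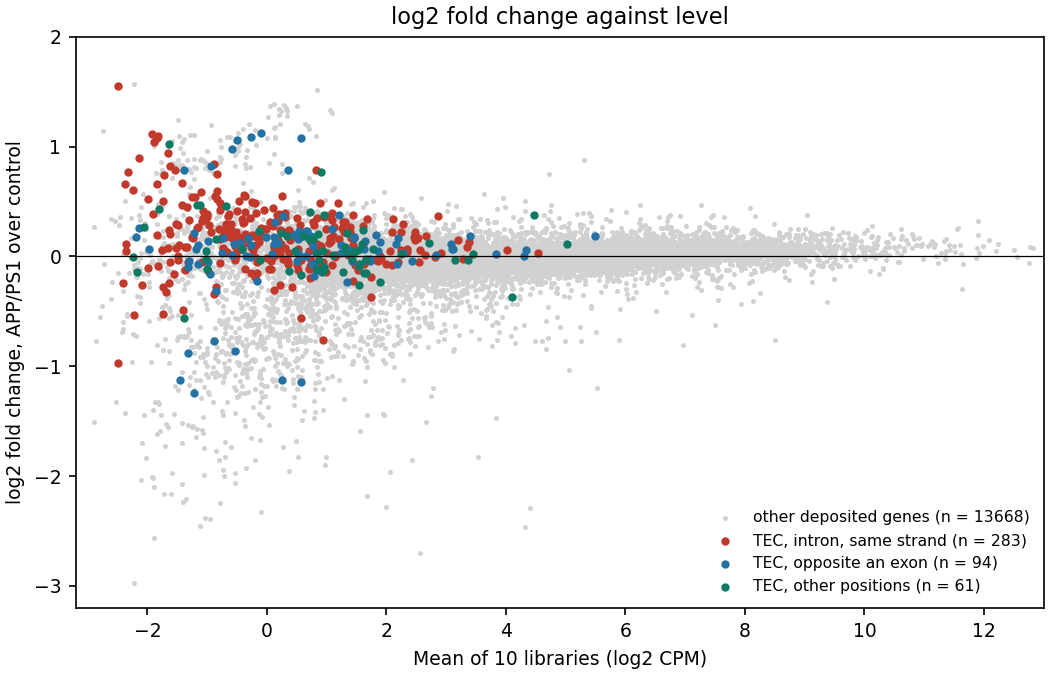
Each point is 1 gene, with its log2 fold change of APP/PS1 over control against the mean of the 10 libraries in log2 CPM. TEC genes in same-strand introns (red), opposite an exon (blue) and in other places (green) lie mostly above the line at 0, by a median of 0.11 over all 438, and spread most below 0 log2 CPM.

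The lean differed between the pairs and between the places. Over the 438 TEC genes, the median difference of the APP/PS1 library from its control was 0.21, 0.41, 0.19, 0.01 and −0.13 log2 units in pairs 1 to 5. The 283 TEC genes in same-strand introns gave the wider range, with medians of 0.31, 0.59, 0.25, 0.02 and −0.31. In pair 2, 264 of the 283 were higher in the APP/PS1 library, and in pair 5, 212 of the 283 were lower. Pairs 2 and 5 therefore pointed opposite ways, and the fold change of these genes over all pairs, with a median of 0.16, averages over that.

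Some other noncoding classes and places shared the signs of the pairs in part, and others did not. The 51 measured genes of the sense_intronic type, none of them TEC, had medians of 0.23, 0.44, 0.21, −0.13 and −0.17 in the 5 pairs. The 18 TEC genes in an intron on the opposite strand had 0.41, 0.28, 0.28, −0.11 and −0.10, and the 17 across an exon on the same strand 0.22, 0.25, 0.27, −0.19 and −0.15, positive in pairs 1 to 3 and negative in pairs 4 and 5. Smaller medians of the same signs were found in the 166 lincRNA genes, at 0.04, 0.12, 0.06, −0.11 and −0.07, and in the 34 genes of the bidirectional_promoter_lncRNA type, at 0.02, 0.05, 0.10, −0.11 and −0.05. Larger types did not share all of these signs. Medians were 0.06, 0.01, 0.01, 0.03 and 0.11 in the 585 antisense genes. In the 681 processed_pseudogene genes they were −0.07, −0.07, −0.0003, 0.12 and 0.02. The 185 processed_transcript genes had −0.01, 0.12, 0.02, −0.04 and 0.04. The 94 TEC genes opposite an exon had medians of 0.05, 0.05, 0.06, 0.04 and 0.14, the highest in pair 5, where the intronic ones were lowest. For the 26 outside other genes the pair medians lay between −0.10 and 0.15. Host genes of the same-strand intronic TEC genes had pair medians of 0.09, −0.04, 0.08, 0.03 and 0.07. Protein-coding genes had medians between −0.012 and −0.003 in all pairs.

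**Figure D4:**
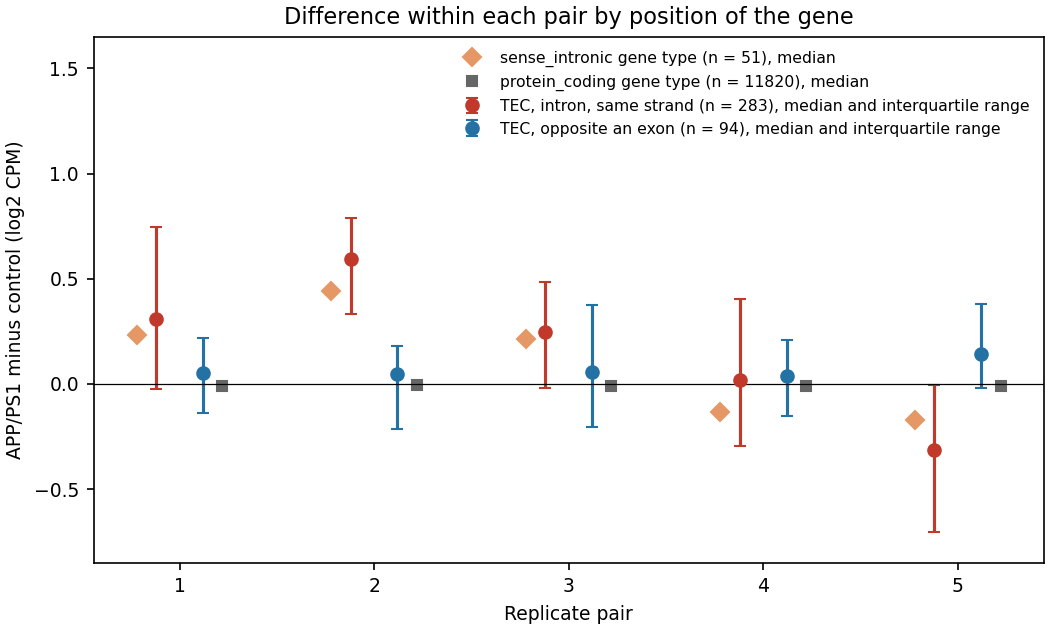
Difference of the APP/PS1 from the control library in each pair, in log2 CPM, as medians over genes with interquartile ranges for the TEC genes. TEC genes in same-strand introns run from 0.59 in pair 2 to −0.31 in pair 5, alongside the sense_intronic type, while TEC genes opposite an exon stay between 0.04 and 0.14 and protein_coding genes near 0.

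Other measures also differed between the pairs. The total of adjusted counts in the APP/PS1 library relative to its control was 0.973, 0.800, 1.03, 1.07 and 0.910 in pairs 1 to 5. Of 5 erythroid markers, haemoglobin genes and Alas2, 4 were measured, with none at 0 in any library. Their summed level was 29.4 to 241 CPM in control and 14.3 to 153 CPM in APP/PS1 libraries, and their median difference was −1.58, −3.33, −3.98, 0.83 and 2.35 log2 units in the 5 pairs, negative in pairs 1 to 3 and positive in pairs 4 and 5. All 7 mural cell markers, such as Pdgfrb and Acta2, were measured, with none at 0 in any library. Their summed level was 547 to 918 CPM in control and 277 to 540 CPM in APP/PS1 libraries, with pair medians of −1.61, −0.27, −0.70, −1.43 and 0.01. Of 7 oligodendrocyte markers 6 were measured, 1 of them at 0 in a library, with a sum of 37.2 to 228 CPM in control and 30.7 to 117 CPM in APP/PS1 libraries and pair medians of −2.70, 0.65, −1.34, −1.93 and −1.55. Of 7 neuron markers 3 were measured, with a sum of 6.67 to 8.23 and 4.85 to 6.19 CPM and pair medians below 0 in all pairs, from −2.76 to −0.41. The 5 astrocyte markers summed to 129 to 170 and 154 to 204 CPM, with pair medians of −2.01, 0.06, −1.41, −0.44 and 0.17. Of 7 microglia markers 6 were measured, with 55.5 to 64.6 and 51.3 to 59.7 CPM and pair medians from −0.99 to 0.36. No marker of any list passed an adjusted p of 0.05 (0 in limma). Across the 438 TEC genes the rank correlation of GC content with the pair difference was −0.09, −0.36, −0.04, 0.14 and 0.19, as a description across genes of the same 2 libraries. The part of these measures in the differences of TEC genes was not tested.

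In 35 TEC genes (7.99%) the difference had the same direction in all 5 pairs, and 7.99% of all genes did so. Of the 35, 30 were higher in APP/PS1 BECs, where 2.99% of all genes were, and 5 were lower, where 5% of all genes were. The values of the APP/PS1 and control libraries did not overlap in 34 TEC genes, compared with 7.88% of all genes. Since the batch correction left nearly equal means in the pairs, groups that do not overlap follow largely from 1 direction in all pairs and add no support to it. In 29 of the 34 the APP/PS1 values were the higher ones (2.91% of all genes) and in 5 the lower ones (4.96% of all genes). Because of its prior count, the log2 scale understates differences of weakly measured genes. The genes below are the 8 of the 30 with the smallest p and all 5 lower ones.

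Gm37238 (chr13:48542644-48545033, minus strand) lies in an intron of 6720427I07Rik and had the smallest p of all TEC genes. Its values were −1.40, −1.51, −1.47, −1.40 and −1.61 log2 CPM in control replicates 1 to 5 and −0.91, −0.91, −0.93, −1.04 and −0.89 log2 CPM in APP/PS1 replicates 1 to 5. The APP/PS1 library of replicate 4 was the lowest of its group. The log2 fold change was 0.54 ± 0.06 (SE, 5 pairs; limma adjusted p = 0.238), and 0.21 for the host, which was low itself, at 2.11 log2 CPM. Behind these values stood 8 to 54 adjusted counts a library. The ATTAAA in its printed end begins at base 48 counted back from the last.

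Gm37084 (chr1:131086252-131092149, minus strand) lies in an intron of Mapkapk2, which encodes a kinase downstream of p38. It had −0.38, −0.31, −0.54, −0.47 and −0.48 log2 CPM in the control libraries and 0.04, −0.06, 0.15, 0.07 and 0.04 log2 CPM in the APP/PS1 libraries. The APP/PS1 values lay near 0 in all 5 libraries, and the log2 fold change was 0.48 ± 0.07 (SE; limma adjusted p = 0.303) beside 0.03 for Mapkapk2.

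Gm45073 (chr8:8642766-8647012, minus strand) lies in an intron of Efnb2, which encodes ephrin-B2, a ligand that marks arterial endothelium. In control libraries it had −0.09, −0.07, 0.17, −0.04 and −0.07 log2 CPM, and in APP/PS1 libraries 0.61, 0.58, 0.35, 0.55 and 0.57. Replicate 3 had the smallest difference of the pairs, 0.17. The log2 fold change was 0.55 ± 0.09 (SE; limma adjusted p = 0.350), that of Efnb2 was 0.12, and the printed end of Gm45073 holds neither hexamer.

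Gm47138 (chr12:99366544-99369913, minus strand) lies in an intron of Foxn3, a forkhead transcription factor gene. Its values were −1.77, −2.18, −2.01, −2.34 and −2.17 log2 CPM in control and −1.51, −1.29, −1.40, −1.21 and −1.36 log2 CPM in APP/PS1 libraries. Behind them stood 6 to 44 adjusted counts a library, and the log2 fold change was 0.74 ± 0.13 (SE; limma adjusted p = 0.368). Foxn3 had a log2 fold change of −0.01.

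Gm48372 (chr10:94108739-94111153, plus strand), in an intron of Fgd6, an activator of the GTPase Cdc42, had the widest difference of the 8. The control libraries had 0.70, 0.09, 0.66, 0.18 and 0.53 log2 CPM and the APP/PS1 libraries 0.98, 1.51, 0.99, 1.46 and 1.14. The libraries of a group differed more than in the genes above, and the log2 fold change was 0.79 ± 0.20 (SE; limma adjusted p = 0.537). The difference was 1.42 in pair 2 and 0.28 in pair 1.

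The other 3 higher genes lay in Tmed10, Ttc23 and Gm10685. Gm47817, on the same strand as Tmed10, whose product carries cargo between endoplasmic reticulum and Golgi, had −0.66 to −0.32 log2 CPM in control and −0.22 to 0.12 in APP/PS1 libraries, and a log2 fold change of 0.50 (limma adjusted p = 0.443). Gm44669, opposite an intron of Ttc23, had −1.03 to −0.75 log2 CPM in control and −0.58 to −0.37 in APP/PS1 libraries, and a log2 fold change of 0.46 (limma adjusted p = 0.441). Gm43534, opposite an intron of Gm10685, overlapped between the groups because replicate 3 stood at −4.85 log2 CPM in control, where the adjusted count was 0, and at −4.35 in APP/PS1. Its log2 fold change was 0.43 (limma adjusted p = 0.514).

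**Figure D5:**
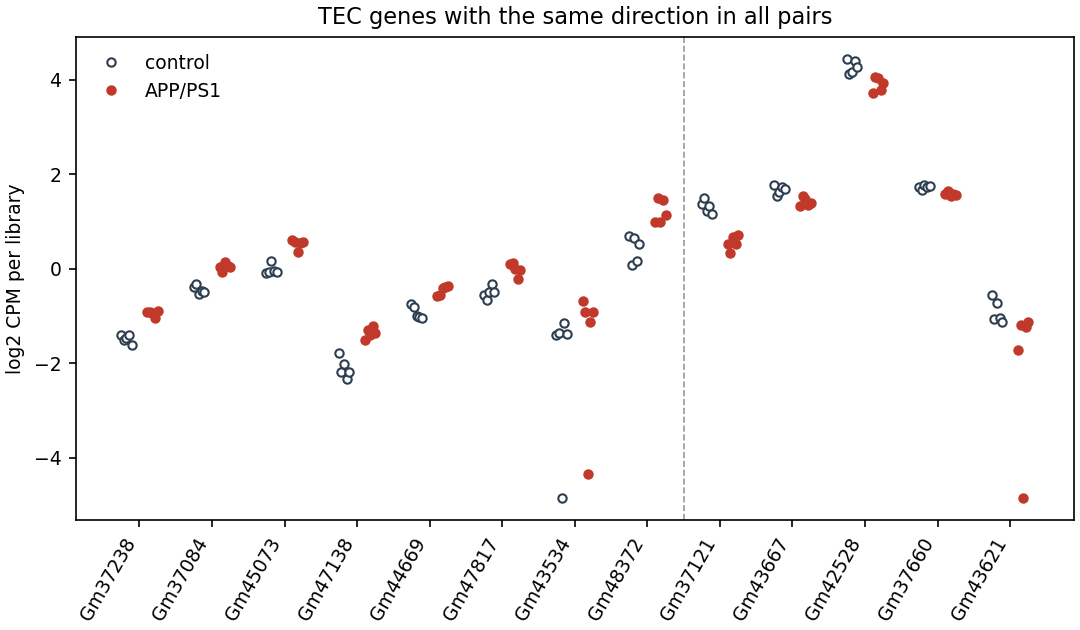
Level of each library in log2 CPM for 8 TEC genes higher (left of the dashed line) and 5 lower (right) in APP/PS1 BECs in all 5 pairs, with open circles for control and filled circles for APP/PS1. The groups separate except in Gm43534, and the points near −4.85 in Gm43534 and Gm43621 are libraries of replicate 3.

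Gm37121 (chr1:62809302-62811857, plus strand) was the lower TEC gene with the smallest p. It lies in an intron of Nrp2, which encodes neuropilin-2, a co-receptor for semaphorins and vascular endothelial growth factors. The control libraries had 1.36, 1.50, 1.22, 1.34 and 1.16 log2 CPM and the APP/PS1 libraries 0.52, 0.33, 0.67, 0.52 and 0.72. The lowest APP/PS1 library was that of replicate 2, and the log2 fold change was −0.77 ± 0.11 (SE; limma adjusted p = 0.303). Nrp2 had a log2 fold change of −0.41 (limma adjusted p = 0.569), with pair differences of −0.31, −0.88, −0.38, −0.54 and 0.06, so it was lower in 4 of the 5 pairs. In Gm37121 the pair differences were −0.84, −1.18, −0.55, −0.82 and −0.43.

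Gm42528, one of the TEC genes of highest level, was also lower in all pairs. Its control libraries had 4.45, 4.12, 4.17, 4.40 and 4.27 log2 CPM and its APP/PS1 libraries 3.72, 4.06, 4.04, 3.79 and 3.94. The difference was uneven, at −0.06 in pair 2 and −0.73 in pair 1. The log2 fold change was −0.37 ± 0.12 (SE; limma adjusted p = 0.569), at 291 to 2367 adjusted counts a library. The AATAAA in its printed end begins at base 20 counted back from the last.

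The remaining 3 lower genes had smaller or less even differences. Gm43667, opposite an intron of Fxr1, which encodes an RNA-binding protein, had 1.55 to 1.78 log2 CPM in control and 1.33 to 1.53 in APP/PS1 libraries, with a log2 fold change of −0.26 (limma adjusted p = 0.563). Gm37660, which begins 952 bases after the end of Tcf12, had 1.66 to 1.78 log2 CPM in control and 1.53 to 1.64 in APP/PS1 libraries, with a log2 fold change of −0.15 (limma adjusted p = 0.569). Gm43621, opposite an exon of Ptgs1, the cyclooxygenase-1 gene, had a log2 fold change of −1.12 (limma adjusted p = 0.772) that was −0.37 without replicate 3, in which the APP/PS1 library had an adjusted count of 0.

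The TEC genes with the largest fold changes rested on libraries at or near 0. In 14 TEC genes the log2 fold change was beyond 1, 10 of them higher and 4 lower in APP/PS1 BECs, and in all 14 at least 1 library had an adjusted count of at most 1. In 9 of the 14 such a library was of replicate 3. When replicate 3 was left out, 5 of the 14 were still beyond 1, and the low libraries of those 5 were of replicates 1 or 4. Without replicate 1, Gm37101 in Nek7 went from 1.04 to 0.68, D630030B08Rik in Atp8a1 from 1.07 to 0.33 and Gm48870 in Dip2c from 1.10 to 0.39, and without replicate 4, Gm47092 in Trak1 went from 1.12 to 0.41. Gm45537, in an intron of Stox2, had 1.55 over all pairs, 1.06 without replicate 1 and 1.19 without replicate 4, and was the 1 gene of the 14 beyond 1 whichever replicate was left out. When replicate 3 was left out, A930005N03Rik, opposite Dst, went from −1.14 to −0.0064, and Gm37676, opposite Nucks1, from 1.09 to 0.04. Over all TEC genes, 75 values were at most 1 adjusted count while the other 9 libraries had a median of at least 20, and 48 of the 75 were in replicate 3, 24 in each group. Over all genes 546 of 683 such values were in replicate 3.

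The most and the least variable TEC genes differed by place. Of the 128 that averaged 1 log2 CPM or more, the 5 with the largest SD of the control libraries all lay in same-strand introns: Gm45828 in Slc6a6, the taurine transporter gene, with an SD of 0.60, Gm38197 in Mecom with 0.52, Gm48600 in Ptprg with 0.50, Gm37033 in Itpkb with 0.46 and Gm42449 in Lef1, a Wnt effector gene, with 0.44. In all 5 replicate 5 held the highest control library, and with it the lowest APP/PS1 library, since the equal batch means make the deviations of a pair mirror each other. Gm38197 had 2.25 log2 CPM in control replicate 5 and 0.29 in APP/PS1 replicate 5, a pair difference of −1.96, while pair 2 differed by 1.30. Gm37033 had 1.87, 2.02, 2.41, 2.17 and 3.04 log2 CPM in control and 2.80, 2.72, 2.41, 2.63 and 1.29 in APP/PS1 libraries. The hosts Mecom and Itpkb had differences in pair 5 of 0.36 and 0.31, opposite in sign to the TEC genes inside them.

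The 5 with the smallest SD of the control libraries were Gm42686 opposite Abcb1a (SD 0.02), Gm43863 opposite Hnrnpf (0.04), Gm49338 opposite Bace1 (0.04), Gm35558 opposite Dync1h1 (0.04) and Gm37123 in an intron of Pik3ca (0.04). In 4 of them the groups did not overlap, with small differences, and 7.88% of all genes did not overlap. Genes chosen for a small SD need only a small difference for that, so it adds no support. Gm42686 had 4.28 to 4.32 log2 CPM in control and 4.34 to 4.38 in APP/PS1 libraries, with a log2 fold change of 0.06 (limma adjusted p = 0.810). Gm35558 had 2.07 to 2.17 and 2.23 to 2.32 log2 CPM, with a log2 fold change of 0.16 (limma adjusted p = 0.554). The values of Gm49338 overlapped, at 4.26 to 4.35 log2 CPM in control and 4.24 to 4.33 in APP/PS1 libraries, with a log2 fold change of 0.0071 ± 0.05 (SE).

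The fold change of a TEC gene was weakly related to that of its host. The rank correlation of the fold changes was 0.19 across the 280 TEC genes in same-strand introns of 207 measured hosts, and 0.37 across the 90 opposite an exon. Taken within pairs, it lay between −0.04 and 0.19 for the same-strand intronic TEC genes. For those opposite an exon it was 0.60, 0.46, 0.04, 0.59 and 0.45 in pairs 1 to 5. TEC gene and host come from the same libraries, and the methods do not state how reads in an overlap were counted, so these values are a description. Within a host with several TEC genes the differences also spread. The 6 TEC genes of Apbb2 had log2 fold changes from −0.26 to 0.51 beside 0.0016 for Apbb2. All 4 of Picalm, a gene of clathrin-mediated endocytosis, were between 0.13 and 0.28 beside 0.19 for Picalm. Within pairs 1 to 5, however, the 4 of Picalm had median differences of 0.20, 0.73, 0.44, −0.11 and −0.25. Picalm itself had 0.28, −0.0060, 0.29, 0.36 and 0.04. The 4 of Fli1 had a median difference of 0.69 in pair 2 and −1.16 in pair 5, and Fli1 itself 0.05 and 0.20.

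As a share of the library, TEC genes took little and the groups overlapped. Summed over the 438, they had 883 to 1043 CPM in control and 898 to 1148 CPM in APP/PS1 libraries. The 283 in same-strand introns had 403 to 552 CPM in control and 422 to 593 CPM in APP/PS1 libraries.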

How the data were processed

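RNA of BECs was sequenced in 10 libraries, 5 per genotype. Per the methods and labels, the authors used STAR for alignment to mm10 and HTSeq-count for counting, removed low-count genes with filterByExpr, took log CPM with edgeR and corrected for batch with ComBat; versions are not given in the sources used here. They deposited log2 CPM of 14106 genes, all found in GENCODE M21 (GRCm38). The deposited log2 values converted to whole adjusted counts (prior count 3, tolerance 0.05) in every gene. ComBat applied to log CPM, the order in the methods, would not in general leave whole numbers, so how the correction was made, and what an adjusted count stands for, is not settled here. Counting error was not computed, since adjusted counts are not reads.

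The lmFit and eBayes functions of limma 3.58.1 (R 4.3.3) were fitted to all 14106 genes with genotype and replicate number as terms, p values being adjusted by the Benjamini-Hochberg method. Same-numbered libraries share a batch in the labels, which put replicates 4 and 5 in 1 of 4 batches. In 10873 genes above 2 log2 CPM their deviations had rank correlations between −0.999 and −0.989, mirror images left by the equal batch means. For TEC genes the rank correlations were weaker, between −0.75 and −0.63, so the mirroring is less close there. Places, lengths and sequences came from the annotation and its transcripts (Python 3.11.15). No genome sequence was used, so bases after the annotated ends were not examined. TEC genes with a stretch of at least 150 bases and 98% identity elsewhere numbered 9.

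The members, lists and rules were chosen with earlier results of these data known. Named TEC genes were the 10 of highest level, the 8 higher and up to 8 lower with the smallest p among those of 1 direction in all pairs, and the 5 with the largest and the 5 with the smallest control SD among those of at least 1 log2 CPM. Other genes named for their size, and hosts with several TEC genes, were chosen after their values were seen. Alternatives were no replicate block, 4 batches, an eBayes trend, libraries centred on their medians, voom, a prior count of 0.5, a mean of at least 1 log2 CPM, each replicate left out, and 2 other rules of place.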

Additional observations from a re-analysis of the deposited data

Results flagged for a closer look

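In a group of 5 libraries, a value was singled out where more than 0.71 of the range lay between it and the next library (Dixon's 95% value). Of 65 groups tested, 60 of named TEC genes and 5 of medians over TEC genes, 7 held such a value, all in named genes. In independent groups chance would give about 3.2. The named genes were chosen by level, p or SD, and the 2 groups of a gene are related through the batch correction. The 7 therefore cannot be judged against the 3.2. In Gm37238, APP/PS1 replicate 4 had −1.04 log2 CPM while the others lay between −0.93 and −0.89. In Gm45073, control replicate 3 had 0.17 with the others between −0.09 and −0.04, and APP/PS1 replicate 3 had 0.35 with the others between 0.55 and 0.61. Gm43534 had −4.85 in control replicate 3 and −4.35 in APP/PS1 replicate 3, far below all other libraries, which lay between −1.40 and −0.69. In Gm43621, APP/PS1 replicate 3 had −4.85 with the others between −1.71 and −1.14. In Gm37033, APP/PS1 replicate 5 had 1.29 with the others between 2.41 and 2.80. Of the 7 values, 5 were of replicate 3, all in Gm45073, Gm43534 and Gm43621.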

How the results depend on the processing

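The count of TEC genes at an adjusted p under 0.05 was 0 in all fits with a block, and 21 with no replicate block (4.79%, all genes 4.59%). In that fit 14 of the 30 named genes passed. Many of the 30 were chosen by p, direction or SD in these same values, so their passing adds no support. At an unadjusted p under 0.05 there were 91 TEC genes with no replicate block (20.8%, all genes 21.6%), 19 with an eBayes trend (4.34%, all genes 8.23%), 15 with voom (3.42%, all genes 7.32%) and 14 of 128 with a mean of at least 1 log2 CPM (10.9%, all genes 7.24%), compared with 38. With that mean, 12 genes had the same direction in all pairs (9.38%, all genes 7.33%), compared with 35. The TEC share thus lay above or below that of all genes depending on the fit. Leaving out each replicate in turn gave 28 to 76 genes at the unadjusted threshold (76 without replicate 5, or 17.4%, all genes 6.66%) and 48 to 100 of the same direction (62, 58 and 100 without replicates 2, 4 and 5, or 14.2%, 13.2% and 22.8%, where all genes had 25.2%, 14.7% and 12.7%). It gave medians of 0.06 to 0.20 over all TEC genes, and of 0.06 without replicate 2 to 0.30 without replicate 5 over those in same-strand introns.

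With place taken against protein-coding genes only, 48 TEC genes lay outside other genes, with a median level of 0.93 log2 CPM, and with at least 50% of the TEC gene inside the host, 57, with a median of 0.95, compared with 26 and 1.44. The second rule gave a median level of 0.30 for TEC genes opposite an exon, compared with 0.52.

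Voom turned the direction of Gm44220 (−0.028), Gm49338 (−0.041), Gm42892 (−0.023), Gm37844 (−0.0087), Gm42547 (−0.055) and Gm37033 (−0.080). Leaving out replicates turned the direction of 10 genes, whose log2 fold changes ranged from −0.14 to 0.53 (Gm37033), −0.045 to 0.13 (Gm37844), −0.42 to 0.39 (Gm38197), −0.034 to 0.56 (Gm42449), −0.042 to 0.062 (Gm42547), −0.057 to 0.21 (Gm42892), −0.041 to 0.089 (Gm44220), −0.0038 to 0.74 (Gm45828), −0.60 to 0.13 (Gm48600) and −0.0086 to 0.037 (Gm49338). The cause of these changes was not tested. The other 20 named genes kept their direction in each setting in which they were fitted, 10 of them not being fitted with a mean of at least 1 log2 CPM. Weakly measured genes limit the precision, since a single library at an adjusted count of 0 can set their fold change.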
